A study of Mus musculus with 24 samples.

Results

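A set of 4 genes carries the making and uptake of vitamin C (ascorbate) in this account of mouse eyes, and they were taken by name from the 56748 genes counted. Gulo encodes L-gulonolactone oxidase, the enzyme of the last step of ascorbate synthesis, and Rgn encodes regucalcin, the lactonase of the step before it. Slc23a1 and Slc23a2 encode SVCT1 and SVCT2, the sodium-dependent transporters that bring ascorbate into cells. The set was chosen by Gulo's counts in dox-treated retinas, which were lower where PRDM13 was overexpressed, so its retinal values with dox are described without a test. Mice, unlike humans, keep a working Gulo gene, and the liver is the organ best known for making ascorbate. Neural tissue takes up ascorbate mainly through SVCT2, while SVCT1 is the transporter of absorbing epithelia such as gut and kidney. Oxidized ascorbate (dehydroascorbate) enters cells through some glucose transporters and is reduced back inside.

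The mice were PRDM13-OE animals and their wildtype littermates on a C57BL/6J background. PRDM13-OE mice are heterozygous and carry a single copy of a cassette at Rosa26 in which the ubiquitous EF-1α promoter drives the reverse tetracycline transactivator and a TRE3G promoter drives 3xHA-tagged human PRDM13, so that dox switches the gene on in the whole animal and not in the retina alone. Each genotype was left untreated or was given 2 mg/ml dox with 10% sucrose in its drinking water for 72 hours, from P28. RNA was sequenced from the neural retina and from the eye cup (retinal pigment epithelium, choroid and sclera) of the same 12 mice, which gave 24 libraries in 8 groups of 3. Whether the untreated mice drank sucrose is not given in the sources used here, and dox and sucrose cannot be told apart in comparisons of treated with untreated mice.

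Between 16034800 and 21513207 reads per retina and between 15825059 and 24908314 per eye cup were counted on genes. Levels within a gene are given as CPM (read counts relative to library size, with TMM factors of edgeR taken within each tissue), and levels between genes as the FPKM of the deposited table, which divides by gene length. In bulk tissue, fewer cells of a type and less RNA per cell cannot be told apart. Human PRDM13 was not analysed here, and mouse Prdm13, which does not check the genotype, was at 44.8 to 60.3 CPM in every retina. Gm13394, a pseudogene picked after its values were seen, had 8023 to 9733 counts in 5 of the 6 PRDM13-OE retinas and 44 to 89 in the wildtype retinas. In the retina and the eye cup labelled untreated PRDM13-OE mouse 1 it had 79 and 62 counts, at the wildtype level, so both libraries go against their label in this respect. Log2-fold changes of the 4 genes that are printed from these libraries stand beside the value without them, except where the libraries left are under the floor of detection. All 3 PRDM13-OE mice with dox expressed Xist, the transcript of the inactive X, whereas each other group held mice with and without it.

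The retinas had their defining transcripts, with the sum of 8 rod genes at 48800 CPM or more in each. The eye cups expressed pigment epithelium genes (8 genes, 6660 to 48700 CPM in sum), yet they also held 2980 to 44100 CPM of the rod genes, so retinal RNA was present in them in unequal amounts. Hepatocyte genes, the markers of the organ best known for Gulo, reached at most 0.353 CPM in sum over 5 genes in a retina and 2.40 CPM in an eye cup, and albumin (Alb) had 0 counts in all retinas.

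In GRCm39, Gulo (ENSMUSG00000034450) lies on the minus strand at chr14:66224235-66246656, Rgn (ENSMUSG00000023070) on the plus strand at chrX:20416026-20428328, Slc23a1 (ENSMUSG00000024354) on the minus strand at chr18:35747657-35760297 and Slc23a2 (ENSMUSG00000027340) on the minus strand at chr2:131894416-131987028. GENCODE vM39 puts an antisense gene over exons of Gulo (Gm63415), Slc23a1 (Gm58766) and Slc23a2 (Gm14051), and none over exons of Rgn. Whether counting used the strand is not given in the sources used here, so reads of Gulo and Gm63415, for example, cannot be told apart. Gm14051, which has a row of its own, had at most 5 counts in a library.

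Per length, Slc23a2 was the most abundant of the 4 transcripts in both tissues and Gulo came second. Over the 12 retinas, the median FPKM was 19.9 for Slc23a2 (range 17.8 to 21.4), 9.93 for Gulo (2.00 to 12.7), 0.185 for Slc23a1 (0.0923 to 0.375) and 0.0679 for Rgn (0.0302 to 0.132). Over the 12 eye cups, the medians were 8.49 for Slc23a2, 3.05 for Gulo, 0.662 for Rgn and 0.408 for Slc23a1. The oxidase of the last step and the neuronal transporter thus had at least 93 and 2523 counts in each retina, while the lactonase and the epithelial transporter had at most 4 and 25.

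**Figure D1:**
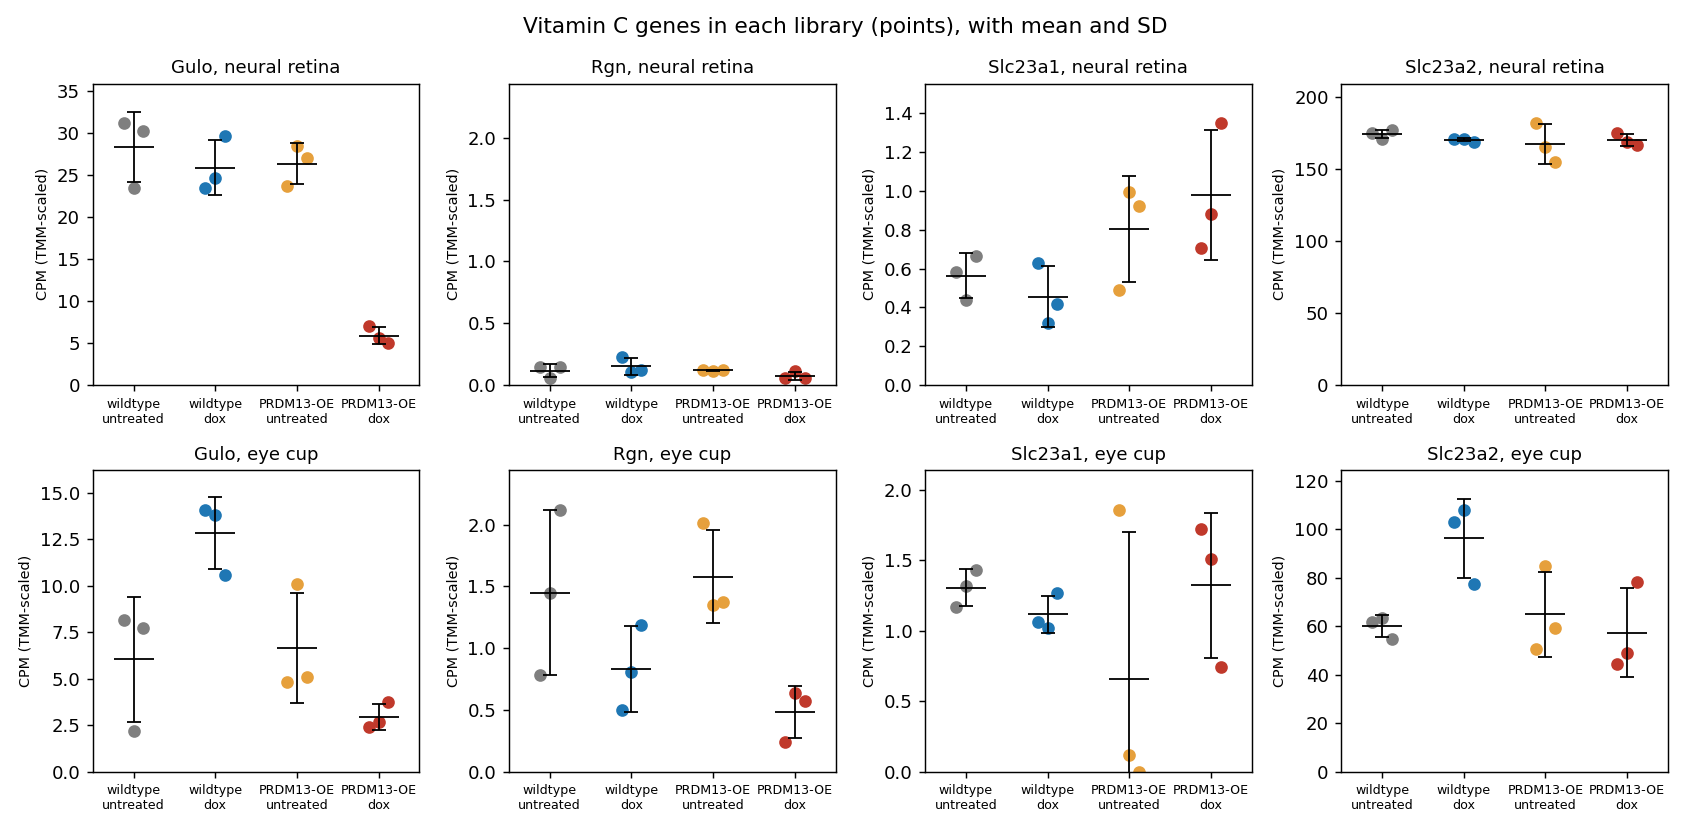
Level of each gene in each library, in CPM scaled with TMM factors within a tissue, on linear axes that start at 0. Points are the 3 libraries of a group and the bars mark their mean and SD, with retinas in the upper row and eye cups in the lower row. Gulo in the retina stood between 5.01 and 7.00 CPM in PRDM13-OE mice with dox and at 23.4 CPM or more in all other groups, whereas Slc23a2 in the retina lay between 155 and 182 CPM throughout.

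Of the members with more than 25 counts in a retina, Gulo stood apart in 1 group and Slc23a2 overlapped in all of them. In PRDM13-OE retinas with dox it had 119, 102 and 93 counts, which is 7.00, 5.60 and 5.01 CPM (mean 5.87 ± 1.02 SD, n = 3). Wildtype retinas with dox had 409, 458 and 497 counts (25.9 ± 3.29 CPM). Every PRDM13-OE retina with dox was thus below every wildtype retina with dox, with a log2-fold change of −2.14 (SE 0.14), a 4.42-fold lower level. Among the 20560 genes tested in this comparison, 2.41% were differentially expressed (DEGs, which had p below 0.05 after edgeR's test and adjustment and lay more than 1 apart on the log2 scale), a share from which nothing is read for Gulo because the comparison was used to choose it.

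Gulo in both untreated groups was at the level of dox-treated wildtype retinas. Untreated PRDM13-OE retinas had 387, 487 and 439 counts (26.4 ± 2.42 CPM) and untreated wildtype retinas 641, 431 and 633 (28.3 ± 4.15 CPM), and these 3 groups overlapped. Against their own untreated group, in a comparison that shares the 3 PRDM13-OE libraries with the one above, PRDM13-OE retinas with dox had a log2-fold change of −2.17 (SE 0.13), and −2.25 without the retina labelled untreated PRDM13-OE mouse 1, where DEGs numbered 229 in place of 214. Wildtype retinas with dox differed from untreated ones by −0.13 (SE 0.12) on the same scale. DEGs made up 1.04% and 0.00485% of the genes tested in these comparisons, the latter 1 gene, or 126 without the wildtype retina of mouse 3 with dox. In order of mean level, only the step to PRDM13-OE with dox lay outside the ranges of the groups.

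Without dox, the genotypes did not differ in retinal Gulo beyond the spread between mice. The log2-fold change was −0.10, with a 95% interval of −0.35 to 0.15 (adjusted p = 0.995 by edgeR), and −0.02 without the retina labelled untreated PRDM13-OE mouse 1. In this comparison 0% of the genes were DEGs, with 778 at an unadjusted p under 0.05, 2 DEGs by DESeq2 and 3 by edgeR without that retina.

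Other transcripts moved with Gulo in the retina. In dox-treated PRDM13-OE and wildtype retinas, respectively, the summed rod genes were at 48800 to 55300 and 65900 to 67800 CPM, and 6 cone genes at 510 to 555 and 1120 to 1160 CPM. The 7 amacrine genes, which mark the cells of the adult retina that express PRDM13 without the transgene, were at 1210 to 1240 and 1340 to 1420 CPM. The 5 endothelial genes were at 127 to 152 and 291 to 306 CPM, and 5 red blood cell genes at 0.706 to 1.19 and 31.0 to 77.9 CPM. The bipolar genes (731 to 854 and 912 to 1030 CPM), the pigment epithelium genes (99.5 to 119 and 178 to 193 CPM) and the ciliary and iris genes (47.3 to 59.0 and 72.2 to 79.8 CPM) were likewise lower without overlap. Microglia genes stood the other way, at 54.5 to 59.0 and 45.6 to 52.9 CPM, while those of Muller glia overlapped, at 5950 to 6240 and 5910 to 6160 CPM. Per 1000 CPM of rod transcripts, Gulo was at 0.0906 to 0.143 CPM in the PRDM13-OE group with dox and at 0.345 to 0.449 CPM in its wildtype counterpart, so the groups also stood apart on this scale. The 12 lens genes were at 4.64 to 26.1 CPM and at 102 to 11200 CPM in the same 2 groups, and the wildtype retina with the least lens RNA, mouse 3, had the most Gulo (29.6 CPM). The wildtype mice with dox that expressed Xist had retinal Gulo at 23.4 and 24.6 CPM. The part of these cells, of lens RNA and of sex in the Gulo difference was not tested.

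Rgn, the enzyme that feeds Gulo, was close to absent from the retinal libraries. It had 1, 2 and 1 counts in PRDM13-OE retinas with dox and 4, 2 and 2 in wildtype retinas with dox. The untreated PRDM13-OE retinas had 2 each and the untreated wildtype retinas 3, 1 and 3. With a floor of 3 counts per library, which covers counting error only, no difference in Rgn was detectable between groups of retinas at this depth, and no fold change is given.

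Slc23a2, the neuronal ascorbate transporter, held a similar level across the retinas. PRDM13-OE retinas with dox had 2972, 3075 and 3089 counts (170 CPM on average) and wildtype retinas with dox 2990, 3183 and 2832 (also 170 CPM). Untreated PRDM13-OE retinas had 2976, 2831 and 2523 counts and untreated wildtype retinas 3600, 3133 and 3722, at means of 168 and 174 CPM. All 4 groups overlapped in CPM. Dox-treated PRDM13-OE and wildtype retinas differed by −0.01 on the log2 scale (SE 0.05), and the sign turned to 0.08 when libraries were scaled by their totals. Between the untreated genotypes it was −0.05 (interval −0.21 to 0.11; adjusted p = 0.995 by edgeR), and −0.12 without the retina labelled untreated PRDM13-OE mouse 1.

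The ratio of transporter to oxidase set the PRDM13-OE retinas with dox apart, as Gulo itself did. Within a retina, the FPKM of Slc23a2 was 7.11 to 9.45 times that of Gulo in PRDM13-OE mice with dox and 1.60 to 2.19 times that of Gulo in the other 9 retinas. In eye cups the ratio was 5.23 to 5.93 in PRDM13-OE mice with dox and 2.08 to 2.22 in dox-treated wildtype mice. Without dox, eye cups had ratios of 2.39 to 3.32 in PRDM13-OE and 2.01 to 8.28 in wildtype mice, where the highest value came from the library with the fewest rod transcripts, wildtype mouse 2.

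Slc23a1, the epithelial transporter, was rare in the retina, and only between the genotypes with dox did it lie clearly the other way from Gulo. It had 12, 16 and 25 counts in PRDM13-OE retinas with dox and 11, 6 and 7 in wildtype retinas with dox. These groups did not overlap, and the log2-fold change was 1.09 (SE 0.42), given as a description. It was 0.79 without PRDM13-OE mouse 3 and 1.40 without wildtype mouse 1. The untreated PRDM13-OE retinas had 8, 17 and 15 counts and overlapped with those of PRDM13-OE mice with dox. The log2-fold change with dox against untreated was 0.28 (SE 0.40), and 0.03 without the retina labelled untreated PRDM13-OE mouse 1. With 1 library left out it ran from −0.02 to 0.47. The untreated genotypes differed by 0.51 (interval −0.42 to 1.43; adjusted p = 0.995 by edgeR), and by 0.76 without the retina labelled untreated PRDM13-OE mouse 1.

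**Figure D2:**
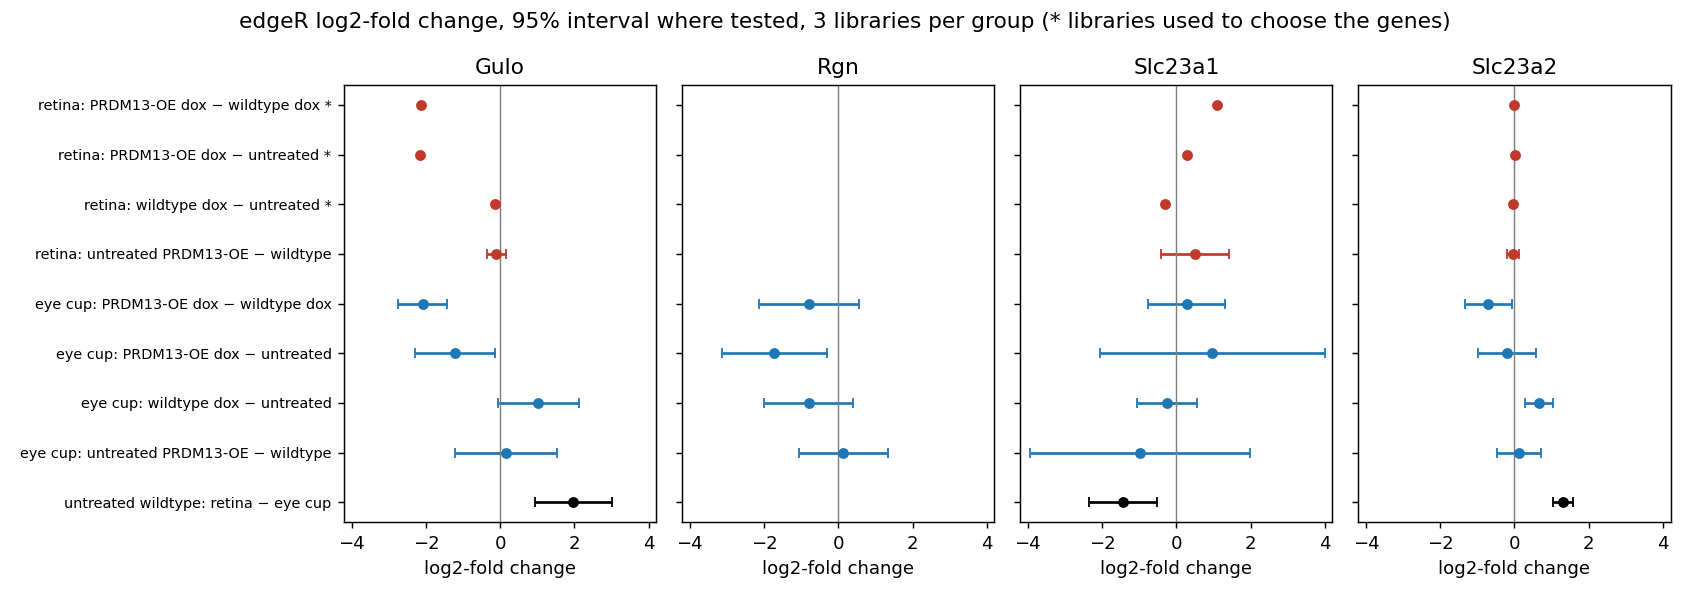
Log2-fold change of each gene in each comparison, first group minus second, by edgeR with 3 libraries per group and, where the comparison was tested, a 95% interval. Asterisks mark comparisons with retinas that were used to choose the genes, drawn without intervals, and no value is drawn for Rgn where retinas were at the floor. Gulo lay at −2.14 in retinas and −2.08 in eye cups for dox-treated PRDM13-OE against wildtype mice, while Slc23a2 lay at −0.01 and −0.70.

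Eye cups are separate libraries from the same mice, so they are further measurements on those animals rather than further animals. The eye cups of dox-treated mice also held retinal RNA, in which Gulo was chosen, so their tests are not independent of that choice. Gulo had 50, 46 and 66 counts in PRDM13-OE eye cups with dox (2.94 ± 0.723 CPM) and 252, 258 and 266 in wildtype eye cups with dox (12.8 ± 1.94 CPM). These groups stood apart, and the log2-fold change was −2.08 (SE 0.28, 95% interval −2.74 to −1.43). It did not pass the test over all genes (adjusted p = 0.274 by edgeR), in a comparison where 0.0184% of the genes were DEGs. DESeq2 gave −2.10 with an adjusted p of 1.6e-08, where it called 100 of 21758 genes. Without the eye cup of PRDM13-OE mouse 3, edgeR gave −2.31 with an adjusted p of 0.0122, in a fit that called 1767 of 21237 genes. Over the alternatives by edgeR that kept all 6 libraries, the adjusted p ranged from 0.102 to 0.889.

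In the other eye cup comparisons, Gulo did not pass the test either. Untreated PRDM13-OE eye cups had 96, 172 and 82 counts and untreated wildtype eye cups 189, 33 and 168. Wildtype eye cups with dox were above all 3 untreated wildtype eye cups, at a log2-fold change of 1.03 (SE 0.46; adjusted p = 0.183 by edgeR), which ran from 0.62 (without untreated mouse 2) to 1.33 (without untreated mouse 1) with 1 library left out. PRDM13-OE eye cups with dox were below all 3 untreated ones, at −1.21 (SE 0.46; adjusted p = 0.975), and at −1.41 without the eye cup labelled untreated PRDM13-OE mouse 1 (adjusted p = 0.399). With 1 library left out that value ran from −1.46 (without PRDM13-OE mouse 3 with dox) to −0.75 (without untreated PRDM13-OE mouse 2). The untreated genotypes overlapped, at 0.15 (95% interval −1.22 to 1.52; adjusted p = 1), and at 0.36 without that eye cup. DEGs made up 0%, 0.0139% and 0% of the genes tested, and where the share was 0%, 6517 genes (wildtype with dox against untreated) and 404 genes (untreated genotypes) had an unadjusted p under 0.05, and DESeq2 called 1979 and 3. By edgeR, the DEGs for wildtype eye cups numbered 930 without mouse 3 with dox and 1991 without untreated mouse 1, and those between untreated genotypes 298 (290 of them lower) without the eye cup labelled untreated PRDM13-OE mouse 1. The difference between the genotypes in their dox effect on Gulo was −2.26 (SE 0.66; edgeR interaction over 12 eye cups, adjusted p = 0.753), and −2.41 without the eye cup labelled untreated PRDM13-OE mouse 1 (adjusted p = 0.181). For the interaction 0% of the genes were called, with 1526 at an unadjusted p under 0.05 and 22 DEGs by DESeq2.

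Among wildtype eye cups, Gulo and retinal RNA stood in the same order. As a share of the same mouse's retina, the rod genes and Gulo in wildtype eye cups with dox were at 70.8% and 65.5% in mouse 1, 54.8% and 62.3% in mouse 2, and 36.0% and 36.6% in mouse 3. In untreated wildtype eye cups the paired shares were 32.8% and 26.3%, 3.99% and 8.56%, and 15.8% and 24.3%. The wildtype eye cups with most rod transcripts were thus also those with most Gulo. The summed cone, amacrine and ganglion cell genes stood in this order too, so the order does not single out rods. The study itself counts Gulo among amacrine cell-related genes. In PRDM13-OE eye cups with dox the paired shares were 23.2% and 33.5%, 9.94% and 45.4%, and 64.9% and 79.8%, and in untreated PRDM13-OE eye cups 17.1% and 20.3%, 32.2% and 38.6%, and 8.98% and 16.3%. In both PRDM13-OE groups the mouse with the least rod RNA did not have the least Gulo (5220 CPM of rod transcripts with 2.67 CPM of Gulo beside 11600 with 2.40 with dox, and 6820 with 5.09 beside 12300 with 4.83 without). The eye cup of PRDM13-OE mouse 3 with dox held 33800 CPM of rod transcripts, as much as wildtype mouse 2 with dox (33500 CPM), and had Gulo at 3.76 against 13.8 CPM. Per 1000 CPM of rod transcripts, Gulo ranged from 0.111 to 0.510 CPM in the PRDM13-OE and from 0.319 to 0.457 CPM in the wildtype group with dox, which overlapped. The overlap came from PRDM13-OE mouse 2, with the least rod RNA of its group, as mice 1 and 3 were at 0.207 and 0.111 CPM. Genes of other tissues also separated these groups, red blood cell genes at 12.1 to 14.7 against 236 to 568 CPM, lens genes at 14.0 to 385 against 603 to 2890 CPM and bipolar genes at 347 to 611 against 695 to 888 CPM. The part of retinal, lens and blood RNA in the eye cup differences was not tested.

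**Figure D3:**
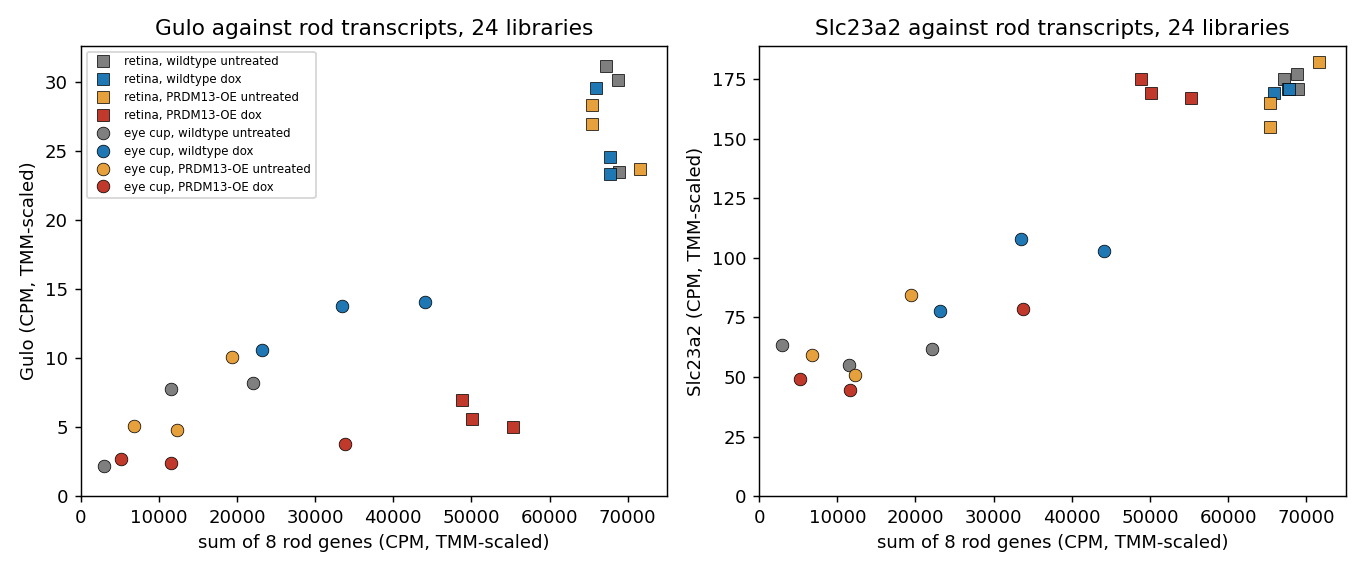
Gulo (left) and Slc23a2 (right) in CPM against the sum of 8 rod genes in CPM, with 1 point per library, squares for retinas, circles for eye cups and colors for the 4 groups. CPM was scaled within each tissue. Gulo in PRDM13-OE retinas with dox lay at 5.01 to 7.00 CPM with rod sums of 48800 to 55300 CPM, while the wildtype eye cup with the highest rod sum (44100 CPM) had 14.1 CPM.

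Rgn was measurable in eye cups. It had 5, 11 and 10 counts in PRDM13-OE eye cups with dox, 9, 15 and 30 in wildtype with dox, 40, 23 and 22 in untreated PRDM13-OE and 18, 22 and 46 in untreated wildtype. The PRDM13-OE groups did not overlap, at a log2-fold change of −1.72 with dox against untreated (SE 0.60; adjusted p = 0.975 by edgeR), and −1.53 without the eye cup labelled untreated PRDM13-OE mouse 1. Between the genotypes with dox it was −0.78 (SE 0.58; adjusted p = 0.651), and between wildtype with dox and untreated −0.80 (SE 0.52; adjusted p = 0.335). None of these passed the test, and with 1 library left out the last 2 values ran from −1.04 to −0.40 (without wildtype mouse 1 or 3 with dox) and from −1.16 to −0.39 (without wildtype mouse 3 with dox or untreated mouse 3). Pigment epithelium genes were also lower in the eye cups with dox, at 6660 to 19200 (PRDM13-OE) and 8830 to 18900 CPM (wildtype), than in the untreated ones, at 20200 to 48700 and 25900 to 41300 CPM, and their part in the Rgn values was not tested.

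By group mean, Slc23a2 in eye cups was highest in wildtype mice with dox and lowest in PRDM13-OE mice with dox, as Gulo was, with smaller differences. It was at 44.6, 49.0 and 78.4 CPM in PRDM13-OE eye cups with dox and at 103, 108 and 77.5 CPM in wildtype eye cups with dox, where PRDM13-OE mouse 3 lay above wildtype mouse 3. The log2-fold change was −0.70 (SE 0.26; adjusted p = 0.597 by edgeR), and −1.01 without PRDM13-OE mouse 3 (adjusted p = 0.0284, in the fit with 1767 calls named for Gulo). Untreated wildtype eye cups had 61.8, 63.4 and 54.9 CPM, all below wildtype eye cups with dox, at a log2-fold change of 0.65 (95% interval 0.27 to 1.04; adjusted p = 0.0734). Untreated PRDM13-OE eye cups had 50.7, 84.6 and 59.4 CPM and overlapped with the PRDM13-OE eye cups with dox (−0.20, SE 0.33; adjusted p = 0.975), also without the eye cup labelled untreated PRDM13-OE mouse 1 (−0.37; adjusted p = 0.792). The rod transcripts described for Gulo were higher in the same wildtype eye cups with dox.

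Slc23a1 in eye cups varied most among the untreated PRDM13-OE mice. It had 37 counts in the eye cup labelled untreated PRDM13-OE mouse 1, but 2 in mouse 2 and 0 in mouse 3, where a count of 0 allows up to 3 counts. The other 3 groups had 36, 26 and 13 counts (PRDM13-OE with dox), 19, 19 and 32 (wildtype with dox) and 27, 20 and 31 (untreated wildtype). The genotypes with dox overlapped, at a log2-fold change of 0.28 (95% interval −0.76 to 1.32; adjusted p = 0.826 by edgeR), and wildtype with dox differed from untreated by −0.25 (SE 0.35; adjusted p = 0.674). The untreated genotypes differed by −0.98 (SE 1.26; adjusted p = 1), and PRDM13-OE with dox against untreated by 0.97 (SE 1.29; adjusted p = 0.975). Without the eye cup labelled untreated PRDM13-OE mouse 1, the untreated PRDM13-OE group is at or under the floor of 3 counts in both libraries left, so no fold change is given, and neither comparison passed (adjusted p = 0.198 and 0.287).

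In untreated wildtype mice, the 4 genes divided between retina and eye cup. Gulo and Slc23a2 were higher in the retina, and Rgn and Slc23a1 were higher in the eye cup. Gulo was 3.90-fold higher in the retina (log2-fold change 1.96, SE 0.44; adjusted p = 0.00633 by edgeR) and Slc23a2 2.47-fold higher (1.31, SE 0.11; adjusted p = 6.8e-05). Rgn was higher in the eye cup (adjusted p = 0.00146 by edgeR), where its mean was 9.11 times the floor of 3 counts per library in the retinas. The eye cups ranged from 0.78 to 2.12 CPM of Rgn, a spread that this multiple leaves out. Slc23a1 was 2.70-fold higher in the eye cup (log2-fold change of retina against eye cup −1.43, SE 0.39; adjusted p = 0.014), but −1.27 with an adjusted p of 0.0515 without the retina of wildtype mouse 2. Slc23a1 also lost its call when all 24 libraries were fitted together (−1.36, adjusted p = 0.129). By the test of these 6 libraries all 4 genes passed, in a comparison of such different tissues that 45.2% of all genes were DEGs. These tissue values hold the retinal RNA of the eye cups, which was least in mouse 2, and its eye cup had 33 counts of Gulo beside 431 in its retina. The eye cups also had 1492 to 1718 counts of the epithelial gene Rab25, and the retinas at most 1. What epithelial tissue adds to Slc23a1 in this comparison was not tested.

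The rest of the ascorbate pathway was followed in a list of 48 genes, of which 47 had a row. It covers the glucuronate route that makes the precursor, relatives in the SLC23 family, glucose transporters that carry dehydroascorbate, recycling enzymes and enzymes that need ascorbate as a cofactor. With dox, between PRDM13-OE and wildtype retinas, 43 were tested and 0 rose or fell as DEGs (edgeR, and 0 by DESeq2), beside 2.41% of all genes. At an unadjusted p under 0.05 there were 15 (34.9%, beside 26.6% of all genes) and at an adjusted p under 0.05 there were 7 (16.3%, beside 12.5%). Their median log2-fold change was 0.00, beside 0.01 for all genes tested. Among the abundant members, Akr1a1, the aldehyde reductase that yields gulonate, was at 277 ± 8.68 CPM and 260 ± 6.88 CPM, respectively, (log2-fold change 0.09, adjusted p = 0.274). Akr1b3, aldose reductase, had −0.18 (adjusted p = 0.129).

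The transporters and recycling enzymes of that list most counted per role over all 24 libraries, where tested, had log2-fold changes between −0.53 and 0.32 in the same retinas. Slc2a1 (GLUT1) was at 358 ± 17.6 CPM with PRDM13-OE and 398 ± 16.1 CPM without (−0.16, adjusted p = 0.0612). Slc2a3 (GLUT3) was at 114 ± 7.56 and 144 ± 11.8 CPM (−0.35, adjusted p = 0.00759), short of the fold cutoff. The rare Slc2a4 (GLUT4), named after its values were seen, was at 2.76 ± 0.444 and 1.51 ± 0.5 CPM (0.87, adjusted p = 0.0589), and was called at 1.17 without the wildtype retina of mouse 3, in a fit that called 507 of 20129 genes. Cyb5r3, a reductase that regenerates ascorbate, had −0.16 (adjusted p = 0.113) and Gsto1, a dehydroascorbate reductase, −0.53 (adjusted p = 0.26). Of the enzymes that use ascorbate, Pam, which amidates peptides, had −0.35 (adjusted p = 8.0e-04) and Tet3, which oxidizes methylated DNA, 0.04 (adjusted p = 0.786). Slc23a4, a relative of the ascorbate transporters, was at 0.736 ± 0.435 and 0.594 ± 0.230 CPM (0.32, adjusted p = 0.735).

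No gene of that list was a DEG by edgeR in the other comparisons between genotypes or treatments, in which 0% to 1.04% of all genes were, so that 0 calls is near the share of all genes. The tested members were 44 in each of the 3 other retinal comparisons, and the numbers at an unadjusted p under 0.05 were 8 for wildtype with dox against untreated (18.2%, beside 9.32% of all genes), 7 for PRDM13-OE with dox against untreated (15.9%, beside 15.6%) and 1 between the untreated genotypes (2.27%, beside 3.76%). In eye cups 45 or 46 were tested, and the numbers were 2 between the genotypes with dox (4.35%, beside 8.24%), 16 for wildtype with dox against untreated (34.8%, beside 29.9%), 3 for PRDM13-OE with dox against untreated (6.52%, beside 4.14%), 0 between the untreated genotypes (beside 1.87%) and 2 for the interaction (4.35%, beside 6.4%). DESeq2 called 2 in wildtype eye cups with dox against untreated, Slc2a3 at 2.29 and Slc2a4 at −1.22, both named after their values were seen, where it called 1979 of 21799 genes in all, and 0 in the others. Slc2a3 was at 65.3 ± 16.9 CPM in wildtype eye cups with dox and at 13.1 ± 8.84 CPM in untreated ones, beside 133 CPM in untreated wildtype retinas. The rod genes in those eye cups were at 23200 to 44100 and 2980 to 22100 CPM, and their part in it was not tested.

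Between tissues the list followed the eye cup. In untreated wildtype mice 3 of 46 members were higher and 23 lower in the retina (56.5% DEGs, beside 45.2% of all genes), with a median log2-fold change of −1.37 beside −0.06. Slc2a3 (3.09), Tet1 (1.37) and Tet3 (1.06) were higher in the retina. Gsto1 (−9.27), the collagen prolyl hydroxylase P4ha3 (−4.98) and the oxygen sensor Egln3 (−4.65) led those higher in the eye cup. Gsto1 was at 15.9 ± 1.31 CPM in untreated wildtype retinas and 8440 ± 2330 CPM in their eye cups. Among untreated PRDM13-OE eye cups, Gsto1 ran from 421 to 14300 CPM and Egln3 from 9.68 to 369 CPM. The part of epithelial tissue in these eye cup levels was not tested. Of the glucuronate route, 5 of 8 genes were lower in the retina and 0 higher, with Akr1a1 at −1.44 and Akr1b3 at −1.97. Slc2a1, Cyb5r3 and Slc23a4 were lower in the retina as well (−2.32, −2.32 and −4.62), whereas Pam (−0.28, adjusted p = 0.271) did not pass, and neither did Slc23a3 (adjusted p = 0.0638), for which no fold is given because the retinas were at or under the floor of 3 counts.

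**Figure D4:**
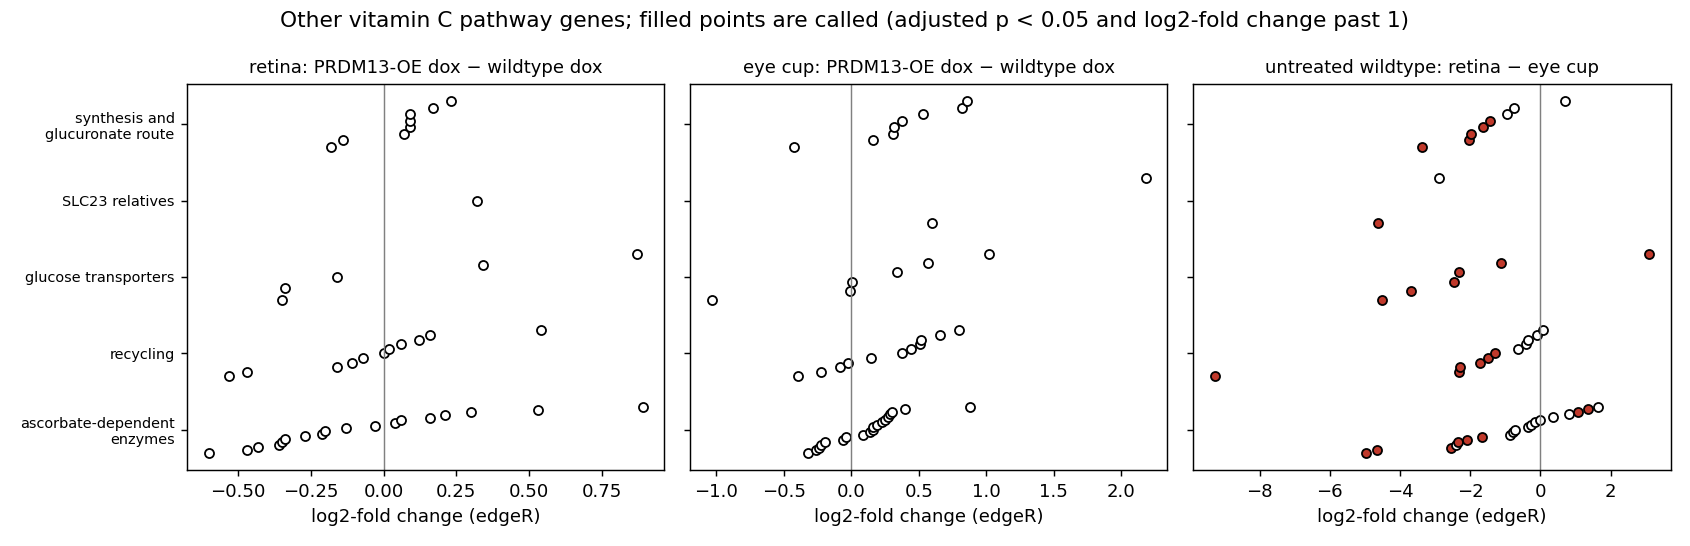
Log2-fold change from edgeR of the other genes of the ascorbate pathway, by role, in 3 comparisons, where each point is a gene, filled points are DEGs and the horizontal axes differ between panels. For dox-treated PRDM13-OE against wildtype mice, 0 genes were DEGs in retinas or eye cups, and between untreated wildtype retinas and eye cups 3 were higher and 23 lower in the retina.

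The genes whose pattern was most like each member were ranked by Pearson's r of log2(CPM + 1) over the 12 libraries of a tissue, as a description. Libraries of a group share a genotype, a treatment and their tissue composition. For Gulo in the retina these were Cckbr, a cholecystokinin receptor (r = 0.991), Lrit2, a leucine-rich repeat membrane protein (0.989), Agpat5, an acyltransferase of phospholipid synthesis (0.988), Nkd1, an inhibitor of Wnt signaling (0.987) and Acsl1, a long-chain acyl-CoA synthetase (0.986). As PRDM13-OE retinas with dox stand apart, r was also taken over the other 9 retinas, where it was 0.632, 0.887, 0.930, 0.634 and 0.807 in the same order. Cckbr had 61, 52 and 46 counts in PRDM13-OE retinas with dox and 228 to 325 in wildtype retinas with dox.

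Cckbr also led the genes most like Gulo in eye cups (r = 0.977), followed by the photoreceptor gene Tulp1 (0.932), Gm17231 (0.928), Nr2e3, a nuclear receptor of rods (0.919) and Msi1, an RNA-binding protein (0.917). Those most like Slc23a2 were Cbfb (0.947), Tmpo, Mastl, Alg10b and Tmed7 (0.864) in the retina and Tmx4 (0.973), Sorcs2, Epg5, Ahcyl1 and D5Ertd579e (0.954) in eye cups. For Slc23a1, Gm12276 (0.927), Ndufb9, Crb2, BC024978 and Psmc1 (0.872) came first in the retina. In eye cups they were Rab25, a small GTPase of epithelia (0.994), Rbp2, Pkp3, a desmosomal protein, Krt80, a keratin, and Grb7 (0.987). Rab25 had 2758 counts in the eye cup labelled untreated PRDM13-OE mouse 1 and 96 and 81 in mice 2 and 3, the eye cups with 2 and 0 counts of Slc23a1. The part of epithelial tissue in the Slc23a1 values was not tested. For Rgn in eye cups the first 5 were Adam7 (0.928), H2ac8, Siglecf, Eprn and Gm26588 (0.889).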

How the data were processed

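RNA was sequenced from retinas and eye cups of 12 mice. Sequencing and quantification against GRCm39 were done by Novogene for the authors, and the submitters' processing notes name CASAVA and HISAT2. The counting tool and annotation release are not given in the sources used here. The authors deposited read counts per gene, without normalization, and these were the input to every test. The deposited FPKM values, which the authors computed from each gene's count and length, served only to compare genes with each other. The deposited table also holds the authors' own fold changes and p-values, which were not used.

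Groups of 3 libraries were compared with edgeR 4.0.16 in R 4.3.3 (TMM, quasi-likelihood test, Benjamini-Hochberg adjustment over every gene with a sum of 10 or more counts in the compared libraries). Genes were called DEGs below an adjusted p of 0.05 when they lay more than 1 apart on the log2 scale. Depth was 15825059 to 24908314 counts per library, and the floor of 3 counts covers counting error only. Alternatives were DESeq2 1.42.0, library size scaling, no filter, a joint fit of a tissue's libraries (of all 24 for the tissue comparison), the mouse number as replicate block and leaving out each library. The test was tried first on simulated data, where only genes with more counts than Rgn were changed. It therefore says nothing of genes as rare as Rgn. No 2 libraries held identical counts.

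The members and gene lists were chosen with earlier results of these data known. Named genes were the 4 members, called genes of the pathway list (the 3 largest rises and falls where over 10 were called), its up to 2 most counted genes per role, and the 5 genes most like each member with at least 10 counts in at least 6 libraries of a tissue, among genes with a mean CPM of at least 1. The marker lists for 16 cell types or sexes were used as sums of CPM, and those not named in the report were computed without a further use.

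The retina and eye cup of a mouse share its number in the labels, so that the block pairs the tissue comparison (correlation of deviations 0.0274 to 0.0588). Between groups of different mice the number pairs nothing by the labels. No sequences are printed.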

Additional observations from a re-analysis of the deposited data

Results flagged for a closer look

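In wildtype mice with dox against untreated, Slc23a2 had values of opposite sign in the tissues. The mean log2 difference between wildtype mice with dox and untreated wildtype mice was −0.04 in the retina and 0.66 in the eye cup, and the libraries with dox lay below the untreated mean in each retina and above it in each eye cup. In the retina edgeR gave −0.04 with an SE of 0.05, so the sign there is not settled. This difference between tissues was not tested, and the eye cup change itself did not pass (adjusted p = 0.0734 by edgeR). The rod genes in those eye cups were at 23200 to 44100 CPM with dox and 2980 to 22100 CPM without, and their part in it was not tested.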

How the results depend on the processing

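The log2-fold changes of the 4 genes and the calls of the pathway list were recomputed. Scaling by library size moved Slc23a2 in dox-treated PRDM13-OE against wildtype retinas from −0.01 to 0.08, where it moved the median of all genes from 0.01 to 0.09. It moved that median to 0.13 in wildtype eye cups with dox against untreated, to 0.17 in PRDM13-OE eye cups with dox against untreated and to 0.24 between tissues. The split of DEGs into higher and lower went from 186 and 309 to 279 and 269 in retinas with dox, and from 4238 and 5687 to 5540 and 4869 between tissues. DESeq2 called Gulo in PRDM13-OE against wildtype eye cups with dox (−2.10). In wildtype eye cups with dox against untreated, the pathway list went from 0 and 0 to 1 higher (Slc2a3) and 1 lower (Slc2a4) under DESeq2, library size and no filter, which called 1979 of 21799, 756 of 21799 and 1060 of 29063 genes in all. With all 24 libraries in one fit, Slc23a1 between the tissues was no longer called (−1.36, adjusted p = 0.129). Causes were not tested.

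Calls over all genes moved by more than 1.5 times between tests. They were 495 for PRDM13-OE against wildtype retinas with dox (394 by DESeq2, 675 without a filter), 214 for PRDM13-OE retinas with dox against untreated (329 without a filter) and 1 for wildtype retinas with dox against untreated (26 by DESeq2, 7 by library size, 186 without a filter, 21 with the replicate block). Untreated retinas had 0 (2 by DESeq2, 47 without a filter). In eye cups they were 4 between the genotypes with dox (100 by DESeq2, 8 without a filter, 0 with the block or all libraries), 3 for PRDM13-OE with dox against untreated (54 by DESeq2, 5 without a filter, 0 with the block or all libraries) and 0 for wildtype with dox against untreated. Leaving out 1 library moved these to 0 to 126 for wildtype retinas with dox, 0 to 1767 for eye cups with dox, 0 to 1991 for wildtype eye cups with dox against untreated and 0 to 298 between untreated eye cups, from the libraries named in the report.

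Leaving out each library gave Gulo −2.30 to −2.04 in PRDM13-OE against wildtype retinas with dox, −2.31 to −1.98 in the eye cups (called without PRDM13-OE mouse 3) and −0.33 to 0.47 between the untreated eye cups. Slc23a2 ranged from −0.04 to 0.01 in retinas with dox, from −0.12 to 0.00 in untreated retinas, from −1.01 to −0.58 in eye cups with dox (called without PRDM13-OE mouse 3), from −0.53 to 0.06 in PRDM13-OE eye cups with dox against untreated and from −0.16 to 0.30 between the untreated eye cups. Slc23a1 ranged from 0.79 to 1.40 in retinas with dox, from −0.61 to −0.10 in wildtype retinas with dox against untreated and from −1.58 to −1.27 between tissues (not called without the retina of wildtype mouse 2). Rgn ranged from −0.16 to 0.50 between the untreated eye cups. Pathway genes called ranged from 0 to 1 higher in retinas with dox (Slc2a4, without wildtype mouse 3), and from 0 to 3 higher (Cryl1, Dcxr and Slc2a4) and 0 to 1 lower (Slc2a3) in eye cups with dox, without PRDM13-OE mouse 3 (1767 of 21237 of all genes). They ranged from 0 to 1 higher (Slc2a3) and 0 to 2 lower (Slc2a4 and Dcxr) in wildtype eye cups with dox against untreated, without untreated mouse 1 (1991 of 21164 of all genes; Slc2a4 also without mouse 3 with dox, 930 of 21199), and from 0 to 3 lower (Akr1b3, Egln3 and Gsto1) between untreated eye cups without the one labelled PRDM13-OE mouse 1 (298 of 20998). All these pathway genes were picked after seeing values.

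The replicate block changed no call of the 4 genes or the pathway list in 54 results, with 0 for pathway genes called in the retinas with dox. Libraries with the same number correlated in their deviations at −0.357 to 0.414 between groups of different mice. With log2(CPM + 0.1), the 5 genes most like a member kept 3 for Slc23a1 in the retina, 3 for Rgn and 1 for Slc23a1 in eye cups. Slc23a1 in retinas (6 to 25 counts) and Rgn in retinas (1 to 4 counts) are limited by depth.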
